A study of Mus musculus with 20 samples.

Results

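The hippocampal transcriptome of mice that received small RNAs (sRNAs) pooled from patients with schizophrenia was compared with that of mice that received sRNAs pooled from unaffected people. The comparison took the 5 mice labelled Schizophrenia 1 RNA (Pool 1) and the 5 labelled Control RNA (Control), 10 of the 20 libraries of the series, and all 25190 genes of the deposited table. All mice were wild-type C57BL/6JOlaHsd males aged 4 months by their labels. Through cannulas placed in CA1 of the dorsal hippocampus, each received 2 bilateral infusions of 2 µL, 48 hours apart, at 0.24 µg/µL of sRNA. The Control sRNAs came from 9 donors and the Pool 1 sRNAs from 10, so each pool is 1 mixture and the 5 mice of a group share it. Brains were taken 24 hours after the last test of behaviour. The labels name hippocampal tissue and the series text names its CA1 field. A group of 5 Vehicle mice, infused with artificial cerebrospinal fluid, gives a background without sRNA.

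The hippocampus is a cortical structure in which excitatory pyramidal neurons of the CA fields and granule cells of the dentate gyrus are wired with inhibitory interneurons, and it serves the formation of memory. Small RNAs such as microRNAs bind messenger RNAs through short complementary stretches and reduce their stability or translation. In messenger RNA libraries, protein coding genes are accompanied by other classes. Processed pseudogenes are copies of messenger RNAs inserted elsewhere in the genome, and structural RNAs such as ribosomal, small nuclear and small nucleolar RNAs mostly lack a poly(A) tail.

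The tissue label was borne out by its markers. Expression is given in CPM, the reads of a gene scaled to the size of its library. Wfs1, a gene of CA1 pyramidal neurons, lay between 102 and 403 CPM in the 10 mice, and Fibcd1, another CA1 gene, between 128 and 282 CPM. Prox1, the transcription factor of dentate granule cells, lay between 45.3 and 209 CPM, so genes of another field were present too. The libraries held 21351170 to 25543939 counts each. No library was a repeat of another, since 2 libraries of a group differed by at least 8.23 and at most 66.8 in their chi-square per degree of freedom, where sampling alone gives about 1. In bulk tissue, fewer cells of a type and less RNA per cell cannot be told apart.

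Few genes separated Pool 1 from Control, and none did so after correction for the number of genes tested. The threshold for a call was a log2 fold change of 0.3 or more in either direction with an unadjusted p-value below 0.05. Past it, 374 genes were higher in Pool 1 (1.48% of those tested) and 502 were lower (1.99%), which is 3.48% in all. In edgeR's quasi-likelihood test the lowest adjusted p-value was 0.421, and 1314 genes (5.22%) had an unadjusted p-value under 0.05. DESeq2 gave an adjusted p-value under 0.05 to 7 genes, none of them protein coding. They were Gm5869, Eef1a1-ps1 and Gm13456, which were lower, and Gm23935, Gm24270, Gm42418 and Mir6236, which were higher. Of the 876 genes past the threshold, 470 had a mean normalized count under 10. The 5 Pool 1 mice lay entirely above the 5 Control mice in 54 of those higher and entirely below in 54 of those lower, together 12.3%. Of all genes, 0.512% lay above and 0.349% below, together 0.861%. A gene had to differ to pass the threshold, so nothing is read from that gap.

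The genes past the threshold were spread unevenly over gene classes, as the plot of shares by class shows. Protein coding genes made up 161 of those higher and 242 of those lower, which is 0.961% and 1.44% of 16756 tested. Processed pseudogenes leaned to lower values, with 140 lower (6.38%) and 19 higher (0.866%) of 2193. Structural RNAs leaned to higher values, with 24 higher (8.11%) and 5 lower (1.69%) of 296. Genes annotated as microRNAs did the same, with 15 higher (6.73%) and 3 lower (1.35%) of 223. Loci of the GENCODE class TEC, a provisional class of transcribed loci, gave 52 higher (3.56%) and 16 lower (1.10%) of 1460. Long non-coding RNAs gave 96 higher (2.44%) and 76 lower (1.93%) of 3930, the second share near that of all genes. Most of these were scarce. At a mean normalized count of 10 or more, 92 coding genes were higher and 185 lower of 14394, while 40 processed pseudogenes were lower and 2 higher of 355. At that level 10 of 29 structural RNAs and 6 of 21 microRNA genes were higher, and no member of either class was lower. These microRNA genes include Gm23935, Gm24270, Gm24245 and Gm24187, whose annotated sequences are the same or nearly so. They are thus not separate measurements, and the share of the class is inflated by copies.

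**Figure D1:**
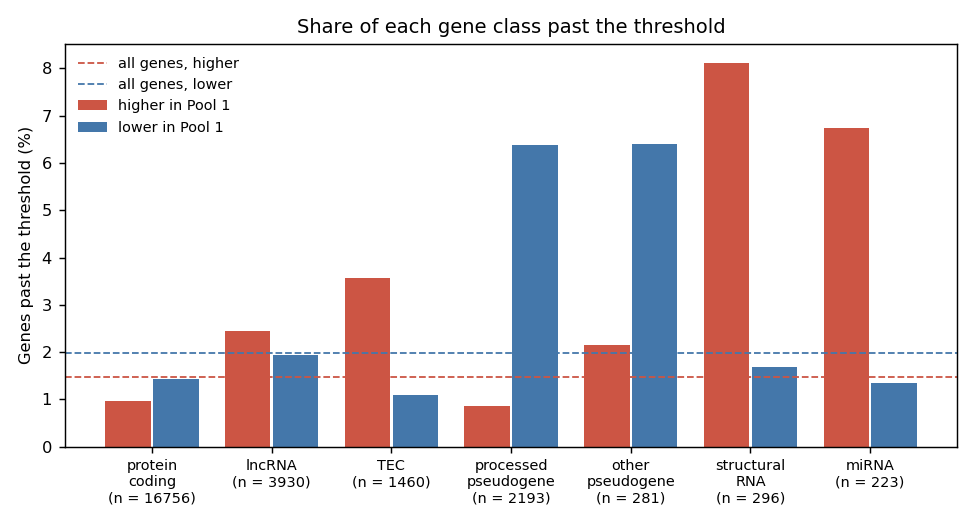
Share of genes past the threshold (%, y axis) in each gene class (x axis, with the number tested) in Pool 1 against Control, with all genes as dashed lines at 1.48% (higher) and 1.99% (lower). Processed pseudogenes reach 6.38% lower, and structural RNAs 8.11% higher.

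The coding gene lower in Pool 1 with the smallest p-value was H3f3a, which encodes the replacement histone H3.3. It stood at 45.2, 50.6, 48.2, 35.4 and 51.1 CPM in Control mice 1 to 5 and at 32.3, 30.2, 36.6, 37.2 and 33.5 CPM in Pool 1 mice. Control mouse 4 lay inside the Pool 1 range and the other 4 Control mice lay above it. The log2 fold change was −0.44 ± 0.10 (SE), with an exact two-sided permutation p-value of 0.0238 on log2 CPM. With 5 mice against 5, that test cannot go below 0.00794.

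Tph2, the rate-limiting enzyme of serotonin synthesis in neurons, was scarce in these libraries. It stood at 2.59, 2.82, 3.13, 2.39 and 3.23 CPM in Control mice and at 1.94, 1.52, 1.89, 1.64 and 1.66 CPM in Pool 1 mice. The groups did not overlap. The log2 fold change was −0.71 ± 0.19, with an exact permutation p-value of 0.00794, and the gene stayed past the threshold whichever of the 10 mice was left out. The groups also did not overlap in Mrrf, the mitochondrial ribosome recycling factor. It stood at 18.6, 20.3, 17.6, 16.3 and 16.9 CPM in Control mice and at 15.01, 12.96, 14.2, 14.5 and 15.03 CPM in Pool 1 mice (log2 fold change −0.32 ± 0.08).

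Of the other coding genes at the head of the lower list, 3 act in mitochondria or lipid synthesis. Etfrf1, a regulator of the electron transfer flavoprotein, had a log2 fold change of −0.32 ± 0.09 and groups that did not overlap. Tmem126a, a mitochondrial inner membrane protein, had −0.39 ± 0.10, and Sptssa, a small subunit of serine palmitoyltransferase, had −0.38 ± 0.11. In both, Control mouse 4 lay in the Pool 1 range and the other Control mice lay above it. Med21, a subunit of the Mediator complex of transcription, had −0.41 ± 0.11. Cript, which binds the postsynaptic scaffold protein PSD-95, had −0.33 ± 0.09, and Bbip1, a subunit of the BBSome of cilia, had −0.32 ± 0.09. The gene 2610001J05Rik had −0.42 ± 0.10. In the plot of coding genes by mouse, Control mouse 4 is the lowest Control point for 9 of these 10 genes, Etfrf1 being the exception.

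Among the coding genes higher in Pool 1, Kif21b, a kinesin motor of neurons, stood at 73.9, 73.6, 68.9, 79.9 and 79.1 CPM in Control mice and at 87.8, 107, 103, 89.5 and 101 CPM in Pool 1 mice. The groups did not overlap, and the log2 fold change was 0.38 ± 0.12 (exact permutation p = 0.00794). Sla2, a Src-like adaptor, was scarce, with 0.783 to 1.12 CPM in Control mice and 1.204 to 2.02 CPM in Pool 1 mice. Its log2 fold change was 0.73 ± 0.22, again without overlap. Pcdhga12, a clustered protocadherin, had 0.38 ± 0.11 without overlap, but its gene shares exons with other gamma protocadherins, so its reads may be split among them.

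Other genes high on that list overlapped between groups. Stum stood at 603 to 708 CPM in Control mice. In Pool 1 it stood at 951, 871 and 874 CPM in mice 2, 3 and 5 and at 695 and 735 CPM in mice 1 and 4. Spred3, an inhibitor of Ras and MAP kinase signalling, had the same division, with 66.9, 63.3 and 68.2 CPM in mice 2, 3 and 5 and 49.7 and 48.6 CPM in mice 1 and 4, beside 46.0 to 49.6 CPM in Control mice. Tle3, a corepressor of the Groucho family, had a log2 fold change of 0.40 ± 0.13, but Pool 1 mouse 1, at 28.6 CPM, lay below all 5 Control mice (exact permutation p = 0.0714). Sh2d3c, an SH2 domain adaptor, had 0.34 ± 0.10, and Palmd, which encodes palmdelphin, had 0.38 ± 0.12.

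**Figure D2:**
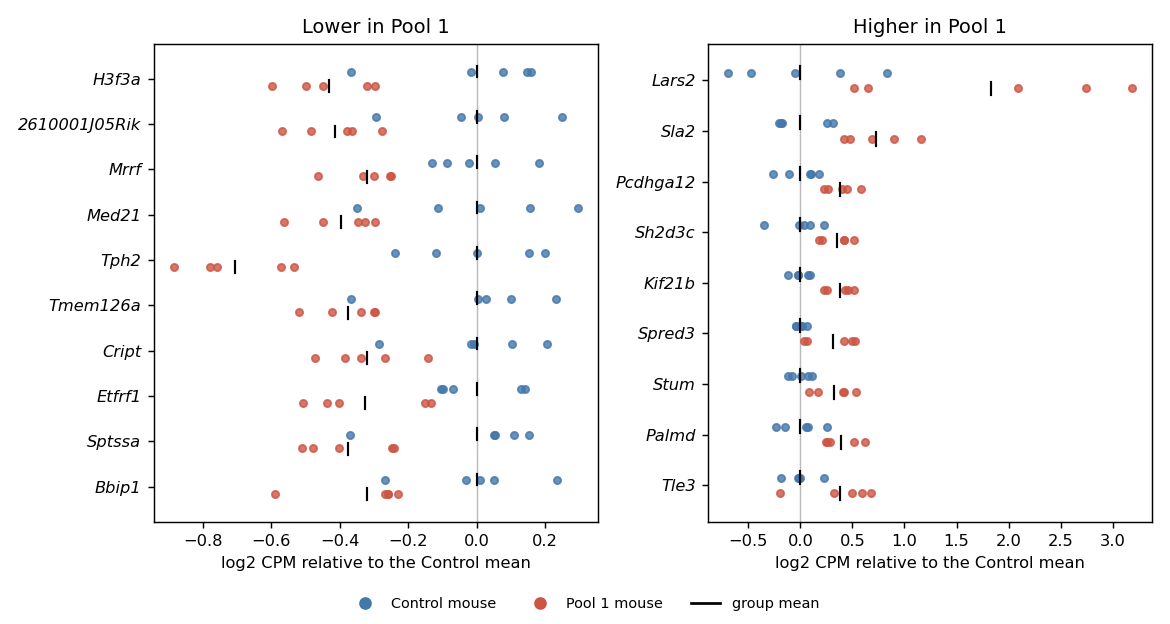
Log2 CPM of each mouse relative to the Control mean (x axis) for the 10 lower (left) and 9 of the higher (right) coding genes of smallest p-value whose mean normalized count was 10 or more. Points are mice and bars are group means. Control and Pool 1 do not overlap in Mrrf, Tph2, Etfrf1, Sla2, Pcdhga12 and Kif21b.

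The coding gene of smallest p-value among those higher was Lars2, the mitochondrial leucyl-tRNA synthetase, and its values went with those of Gm42418, which lies over an rRNA gene. It stood at 127, 81.9, 172, 95.2 and 235 CPM in Control mice and at 1203, 188, 207, 562 and 883 CPM in Pool 1 mice. Pool 1 mice 2 and 3 overlapped Control, and mice 1, 5 and 4, in that order, were highest. The log2 fold change was 2.10 ± 0.58 (exact permutation p = 0.0317). Gm42418, a long non-coding RNA at chr17:39846958-39848788 (GRCm38, plus strand) that overlaps the annotated rRNA gene CT010467.1 on the other strand, ordered the Pool 1 mice in the same way. It stood at 847, 470, 1428, 645 and 1556 CPM in Control mice and at 12400, 1511, 1775, 5460 and 9609 CPM in Pool 1 mice (log2 fold change 2.64 ± 0.66, exact permutation p = 0.0159). Vehicle mice stood at 4396, 4344, 545, 1175 and 1631 CPM, so 2 of the mice without any sRNA lay above Pool 1 mice 2 and 3.

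Several genes annotated as microRNAs were, like Gm42418, highest in Pool 1 mice 1, 5 and 4, in that order. Of these, 3 have the same annotated sequence at different places and 1 more differs from it by 1 base, which is why they are shown. A read inside that sequence fits all 3 places, so their values are uncertain. The annotated transcripts (GENCODE M21, GRCm38, 5′ to 3′) of Gm23935 (chr16:11144125-11144181, plus strand), Gm24270 (chr9:56223715-56223771, minus strand), Gm24245 (chr4:139338304-139338360, plus strand) and Gm24187 (chr13:9834469-9834525, minus strand) are given, with the 1 base that differs from Gm23935 in a capital:
Gm23935: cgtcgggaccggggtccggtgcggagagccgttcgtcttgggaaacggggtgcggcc
Gm24270: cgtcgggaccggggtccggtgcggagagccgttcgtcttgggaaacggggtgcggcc
Gm24245: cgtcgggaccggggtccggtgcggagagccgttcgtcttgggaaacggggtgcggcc
Gm24187: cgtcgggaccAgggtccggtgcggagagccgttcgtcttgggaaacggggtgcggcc

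Gm23935 stood at 22.3, 12.9, 23.8, 12.2 and 34.9 CPM in Control mice and at 280, 40.9, 46.8, 139 and 247 CPM in Pool 1 mice. The groups did not overlap, mice 2 and 3 were close to Control, and the log2 fold change was 2.83 ± 0.65. Gm24270 had 2.72 ± 0.68, Gm24187 had 2.59 ± 0.68 and Gm24245 had 2.42 ± 0.70. The last 2 were named after their values were seen, as was CT010467.1 above. The same holds for Mir341, Rn7sk, Rny1, Rny3 and n-R5-8s1 below.

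Mir6236 stood at 1.83, 0.873, 1.84, 1.03 and 2.12 CPM in Control mice and at 13.8, 2.74, 2.43, 6.81 and 7.93 CPM in Pool 1 mice. Its log2 fold change was 2.14 ± 0.50 without overlap. Mir341, a microRNA gene of chromosome 12, was higher without that division of the mice, at 0.486 to 0.897 CPM in Pool 1 and 0.177 to 0.596 CPM in Control. Its log2 fold change was 1.01 ± 0.41, and it was measured on 4 to 20 reads per mouse. A microRNA gene is counted here through RNA that passed the poly(A) selection, so these values are not levels of mature microRNA. The mature sequences (RefSeq, GRCm38.p6) are given with the seed, bases 2 to 8, in capitals, and no seed is shared among them:
mmu-miR-6236: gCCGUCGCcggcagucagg
mmu-miR-341-5p: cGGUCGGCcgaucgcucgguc
mmu-miR-341-3p: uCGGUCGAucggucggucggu

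Summed over the class, structural RNAs were highest in Pool 1 mice 1 and 4. The summed level of the 296 measured was 39.9 to 60.6 CPM in Control mice and 211, 63.1, 59.98, 106 and 60.8 CPM in Pool 1 mice 1 to 5, with 45.9 to 102 CPM in Vehicle mice. Rn7sk, the 7SK RNA that holds back transcription elongation, stood at 5.90, 1.31, 5.11, 3.42 and 8.62 CPM in Control mice and at 115, 11.5, 12.4, 48.01 and 19.9 CPM in Pool 1 mice. The groups did not overlap (log2 fold change 3.10 ± 0.85). Rn7sk alone gave 115 of the summed 211 CPM in Pool 1 mouse 1 and 48.01 of the 106 CPM in mouse 4. The sum in these mice thus rests in large part on 1 gene. Rny1 and Rny3, the Y RNAs that bind the Ro60 protein, had log2 fold changes of 2.66 ± 0.85 and 3.03 ± 0.86. The 5.8S rRNA gene n-R5-8s1 had 2.70 ± 0.74, and Gm22009, a small Cajal body RNA gene, had 1.94 ± 0.50 without overlap between the groups. Without Pool 1 mouse 1, the most extreme, 17 structural RNAs were higher rather than 24. The part that the poly(A) selection of each library had in these values was not tested.

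**Figure D3:**
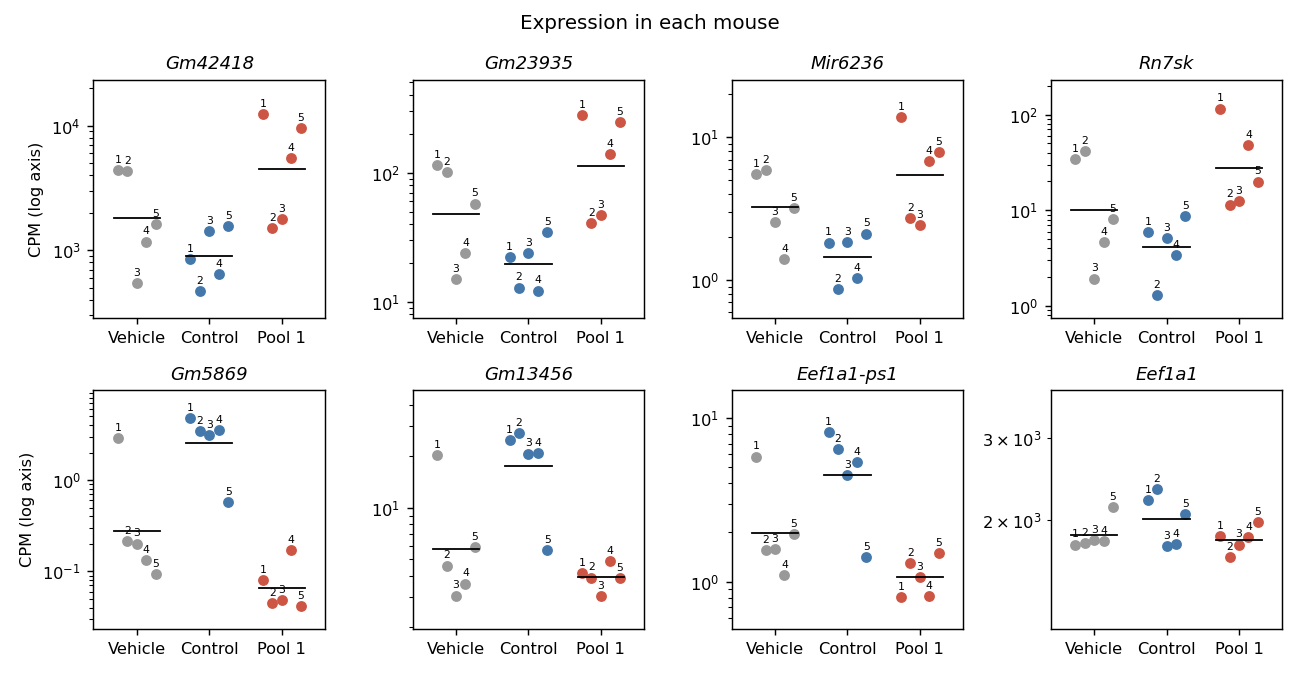
CPM of 8 transcripts (log axes) in each Vehicle, Control and Pool 1 mouse, numbered by replicate, with the geometric mean as a bar. In the upper row mice 1, 4 and 5 are the highest of Pool 1, with Gm42418 at 12400, 5460 and 9609 CPM. In the lower row Control mice 1 to 4 and Vehicle mouse 1 lie highest in 3 pseudogenes of Eef1a1, while Eef1a1 itself lies between 1663 and 2333 CPM in Control and Pool 1 mice.

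On the lower side, the smallest p-values of all genes belonged to pseudogenes of Eef1a1, which encodes the elongation factor that brings aminoacyl-tRNA to the ribosome. Of 17 pseudogenes whose closest coding gene was Eef1a1 by shared sequence, all 17 had a negative log2 fold change and 11 were lower past the threshold. The family was picked out after its values were seen, and its members share sequence, so they are not taken as separate measurements. Gm5869 (chr5:86997159-86998415, plus strand) stood at 4.74, 3.41, 3.13, 3.54 and 0.575 CPM in Control mice and at 0.0809, 0.0448, 0.0485, 0.172 and 0.0415 CPM in Pool 1 mice, which is 1 to 4 reads each. The groups did not overlap, and the log2 fold change was −5.21 ± 0.92 (exact permutation p = 0.00794). Control mouse 5 lay far below the other 4 Control mice.

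Of the other members, Gm13456 and Eef1a1-ps1 divided the mice in the same way, and Gm6192 and Gm6548 did not. Gm6192 stood at 2.98 to 4.28 CPM in Control mice and at 2.71 to 3.74 CPM in Pool 1 mice (log2 fold change −0.19 ± 0.18), and Gm6548 had −0.22 ± 0.24, neither past the threshold. Gm13456 stood at 24.8, 27.1, 20.7, 20.8 and 5.66 CPM in Control mice and at 3.06 to 4.87 CPM in Pool 1 mice (log2 fold change −2.32 ± 0.47). Eef1a1-ps1 stood at 8.23, 6.47, 4.47, 5.37 and 1.42 CPM in Control mice and at 0.809 to 1.495 CPM in Pool 1 mice (−2.24 ± 0.42). Control mouse 5 overlapped Pool 1 in Eef1a1-ps1. Among Vehicle mice, mouse 1 stood at 2.91 CPM for Gm5869 and the other 4 at 0.0931 to 0.217 CPM, so Vehicle mice divided too. The parent gene moved little, at 2205, 2333, 1761, 1778 and 2061 CPM in Control mice and 1849, 1663, 1771, 1837 and 1979 CPM in Pool 1 mice (log2 fold change −0.16 ± 0.10, not past the threshold). Without Control mouse 1, 4 of the family were lower past the threshold rather than 11.

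How close these copies are to Eef1a1 shows in their sequence. Over its whole length Gm5869 was identical to the Eef1a1 coding sequence at 1211 of 1257 aligned bases (96.3%), and Gm13456 at 1342 of 1361 (98.6%). Gap positions, 26 in Gm13456 and 0 in Gm5869, are not counted in these shares, so the shares do not rank the copies. In Gm5869, 65.2% of all windows of 50 bases, the length of a read, occurred in no other annotated transcript, and in Gm13456 42.6% did. The stretches shown next were picked as the 60 aligned bases, without gaps, that differ most from Eef1a1, so they are not typical. Stretches of 60 bases are shown from each copy, at chr5:86997159-86997218 and chr2:40556619-40556678 (GENCODE M21, GRCm38, plus strand), above the matching stretch of the Eef1a1 coding sequence, with the bases that differ in capitals:
Gm5869: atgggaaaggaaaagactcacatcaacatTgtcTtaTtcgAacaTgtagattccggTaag
Eef1a1 beside Gm5869: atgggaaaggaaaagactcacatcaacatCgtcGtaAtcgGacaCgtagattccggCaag
Gm13456: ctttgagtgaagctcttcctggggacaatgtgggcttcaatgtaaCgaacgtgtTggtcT
Eef1a1 beside Gm13456: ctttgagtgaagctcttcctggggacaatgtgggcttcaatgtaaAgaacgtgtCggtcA

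Copies of ribosomal protein genes were also among the pseudogenes that were lower. By shared sequence, the closest coding gene was a cytosolic ribosomal protein for 479 processed pseudogenes, of which 54 were lower (11.3%) and 4 higher, with copies of 42 ribosomal proteins among the 54. Of 1569 pseudogenes with another closest gene, 73 were lower (4.65%), and of 114 with no close gene 1 was lower. Pseudogenes that were lower had less sequence of their own, since a median of 51.7% of their 50-base windows occurred in no other transcript, against 71.4% for those not past the threshold and 98.6% for those higher. Rps16-ps2 stood at 5.32, 5.32, 3.04, 2.35 and 2.70 CPM in Control mice and at 1.61 to 2.45 CPM in Pool 1 mice (log2 fold change −0.85 ± 0.25). Rpl38-ps2 stood at 1.67 to 3.40 CPM in Control mice and at 0.890 to 1.59 CPM in Pool 1 mice without overlap. Rpl37rt, a transcribed copy of Rpl37, had −0.67 ± 0.18.

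The ribosomal protein genes themselves, which build the cytosolic ribosome, leaned the same way by small steps. Of 82 measured, 81 had a negative log2 fold change, with a median of −0.24 against −0.01 for all genes. Past the threshold, 10 were lower (12.2%, against 1.99% of all genes) and 1 was higher (1.22%, against 1.48%). The 1 that was higher was Rpl39l, a copy of Rpl39. Rps26 stood at 110, 107, 77.6, 72.2 and 87.9 CPM in Control mice and at 67.0, 67.0, 67.0, 75.3 and 78.0 CPM in Pool 1 mice. Control mice 1 and 2 were above the rest, and the other 3 Control mice were close to Pool 1. Rps26 had a log2 fold change of −0.36 ± 0.13, beside −0.35 ± 0.12 in Rpl36a, −0.34 ± 0.14 in Rpl11 and −0.39 ± 0.15 in Rpl38. The summed level was highest in Control mice 1 and 2, at 11820 and 11370 CPM, followed by Pool 1 mouse 5 at 9998 CPM, and the other 7 mice lay between 7414 and 9440 CPM. Without Control mouse 2, none of the 82 was lower past the threshold. Without Pool 1 mouse 5, 37 were, and without Control mouse 4, 42 were.

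Nuclear genes of oxidative phosphorylation, which encode subunits of the respiratory chain, went with the ribosomal proteins. Of 86 measured, 7 were lower (8.14%, against 1.99% of all genes) and none was higher, with a median log2 fold change of −0.17. Cox7b, a subunit of cytochrome c oxidase, stood at 163 and 182 CPM in Control mice 1 and 2, at 99.8 to 142 CPM in the other Control mice and at 99.4 to 118 CPM in Pool 1 mice (−0.39 ± 0.13). Uqcrb, of complex III, had −0.35 ± 0.14, and Ndufb4, of complex I, had −0.31 ± 0.12. Without Control mouse 2, 1 of the 86 was lower. Without Pool 1 mouse 5, 23 were, and without Control mouse 4, 30 were. None of the 13 genes of the chain encoded in mitochondrial DNA passed the threshold.

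These genes are short, and the coding genes that passed the threshold differed in transcript length. Among 14394 coding genes of a mean normalized count of 10 or more, of which 1.29% were lower and 0.639% higher, the longest annotated transcript had a median of 1573 nt for genes that were lower, 4479 nt for genes that were higher and 3496 nt for the others. The genes were put in 10 equal bins by that length. In the bin with the shortest transcripts 88 genes were lower and 6 higher, and in the bin with the longest 1 was lower and 17 were higher. The median log2 fold change went from −0.14 to 0.06 between these bins. Among the 1328 genes of the shortest bin outside the ribosomal protein and oxidative phosphorylation lists, 74 were lower (5.57%) and the median was −0.13. GC content differed too, with a median of 46.4% for genes that were lower and 53.6% for genes that were higher.

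The mice were not divided by group in this respect. For each mouse, the median deviation from the mean of the 10 mice was taken in the 20% of genes with the longest and the 20% with the shortest transcripts, and the second was subtracted from the first, on the log2 scale. This long-minus-short value was −0.50 in Control mouse 1, −0.27 in Control mouse 2 and −0.41 in Pool 1 mouse 5, all 3 with more of the short transcripts. It was 0.28 in Control mouse 4 and 0.29, 0.28, 0.14 and 0.08 in Pool 1 mice 1 to 4, and 0.06 and 0.04 in Control mice 3 and 5. The group means were −0.08 and 0.08, and the difference of 0.15 did not pass an exact two-sided permutation test (p = 0.421). For a covariate in the fit, the value was taken against the mean of all 20 libraries, with −0.52 in Control mouse 1. This alternative was chosen after seeing the data. With the covariate, 90 of the 185 lower and 63 of the 92 higher coding genes of that count stayed past the threshold. Genes were gained too, so that 253 coding genes of that count were lower and 134 higher. With the covariate none of the ribosomal protein or oxidative phosphorylation genes was lower. Of the ribosomal protein pseudogenes 12 were lower, against 20 without it. At that count, 55 of 80 ribosomal protein genes and 56 of 85 oxidative phosphorylation genes lay in the shortest bin. They are among the genes that the covariate is computed from. Their loss is thus partly built in, and nothing is read from it.

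**Figure D4:**
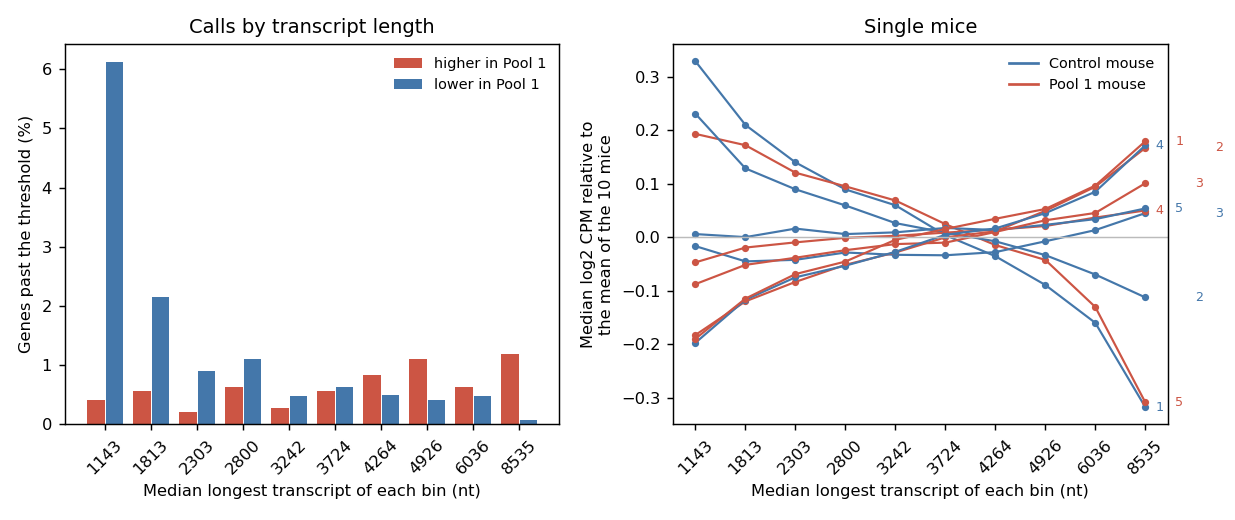
Left, share of coding genes past the threshold (%, y axis) in 10 bins by longest annotated transcript (x axis, median in nt), lower in 6.12% of the shortest bin. Right, median log2 CPM of each numbered mouse relative to the mean of the 10 mice in the same bins, where Control mice 1 and 2 and Pool 1 mouse 5 fall with length and the steepest rise is in Control mouse 4 and Pool 1 mice 1 and 2.

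Of 44 replication-dependent histone genes, which supply histones for DNA replication and mostly lack a poly(A) tail, 4 were lower (9.09%, against 1.99% of all genes) and none higher, and 18 had positive log2 fold changes. H3c15 stood at 2.55, 2.74, 2.30, 1.35 and 1.59 CPM in Control mice and at 0.769, 0.852, 1.94, 1.08 and 0.997 CPM in Pool 1 mice (−0.91 ± 0.27). The groups overlapped. H2bc4 had −0.42 ± 0.14, H4c9 −0.58 ± 0.22 and H4c11 −0.90 ± 0.38. Of 9 replacement histone genes, H3f3a alone passed the threshold (11.1% of a short list, against the same 1.99% of all genes).

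Over 17 lists of markers for cell types and neighbouring tissues, 5 of 192 distinct members passed the threshold, beside 3.48% of all genes. Pcp4, a calmodulin regulator of CA2 and other neurons, stood at 9.43, 6.98, 8.79, 8.43 and 8.14 CPM in Control mice and at 7.53, 4.26, 6.07, 5.26 and 3.53 CPM in Pool 1 mice (−0.65 ± 0.20). Pool 1 mouse 1 alone overlapped Control. Cpne7, a copine on the CA3 list, had 0.52 ± 0.18, with Control mouse 5 inside the Pool 1 range. Pcp4 was the 1 call among 12 CA1 and CA2 genes (8.33%, against 1.99% of all genes). Of those 12, 6 were positive and 6 negative (median −0.002). Cpne7 was the 1 call among 8 CA3 genes (12.5%, against 1.48% of all genes). The CA3 list leaned the other way, with 5 negative and 3 positive (median −0.10). No member passed the threshold in the lists for dentate granule cells (10 genes), interneurons (20), microglia (15) and oligodendrocytes (13). The lists for oligodendrocyte precursors (10) and for endothelial cells and pericytes (15) held none either. Log2 fold changes were negative in all 10 dentate genes (median −0.23), 14 microglial genes (−0.18) and 12 oligodendrocyte genes (−0.11). With 1 mouse left out, the dentate median reached 0.04 and the oligodendrocyte median 0.06. Positive values were found in 12 interneuron, 8 precursor and 12 endothelial and pericyte genes.

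Gfap, the intermediate filament of astrocytes, was the 1 gene lower among 12 of reactive astrocytes (8.33% of a short list, against 1.99% of all genes). It stood at 547, 821, 535, 440 and 579 CPM in Control mice and at 388, 432, 368, 464 and 433 CPM in Pool 1 mice, with a log2 fold change of −0.49 ± 0.22 and an exact permutation p-value of 0.0159. Pool 1 mouse 4 lay above Control mouse 4, and the call was lost in 5 of the 10 fits that left 1 mouse out. The median of the 12 genes was −0.39, and 11 were negative. None of the 12 other astrocyte markers passed the threshold. Aif1, the microglial gene for IBA1, had −0.37 ± 0.42 and Pvalb, the calcium buffer of fast-spiking interneurons, had −0.14 ± 0.21, neither past the threshold.

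Markers of neighbouring tissues varied between single mice. The 14 choroid plexus genes all had negative log2 fold changes, with a median of −1.39. Only the transcription factor Otx2 passed the threshold (7.14% of a short list, against 1.99% of all genes). Its log2 fold change was −1.27 ± 0.60, and the call was kept in 3 of the 10 fits that left 1 mouse out. The summed level of the 14 genes was 2406 CPM in Control mouse 3 and 777 CPM in Control mouse 1. It was 128 to 195 CPM in the other Control mice, beside 117 to 319 CPM in Pool 1 mice. The median over the 14 genes went from −1.65 to −0.20 as each mouse was left out in turn. Zic1, a transcription factor on the thalamus list, stood at 17.3, 14.9, 35.2, 25.1 and 19.2 CPM in Control mice and at 11.3, 10.7, 10.19, 7.71 and 11.6 CPM in Pool 1 mice. The groups did not overlap (−1.12 ± 0.40), and all 10 genes of that list were negative. Its summed level was 123 to 260 CPM in Control mice and 93.1 to 144 CPM in Pool 1 mice.

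Of 19 genes of vesicle release, Syt2, a fast calcium sensor, was higher (5.26%, against 1.48% of all genes) and Syt9, another synaptotagmin, was lower (5.26%, against 1.99%). Syt2 stood at 26.3, 20.1, 20.1, 20.4 and 23.6 CPM in Control mice and at 20.03, 39.2, 26.2, 34.3 and 36.6 CPM in Pool 1 mice. Pool 1 mouse 1 was the lowest of the 10 mice and mouse 3 was level with Control mouse 1. The log2 fold change was 0.50 ± 0.22, the exact permutation p-value was 0.0873, and the call was kept in 4 of the 10 fits that left 1 mouse out. Syt9 had −0.84 ± 0.34. Its values went from 3.13 to 7.18 CPM in Control mice and from 1.89 to 3.58 CPM in Pool 1 mice, beside the thalamus and choroid plexus values above, whose part in it was not tested. None of 23 glutamate receptor and postsynaptic scaffold genes, 12 GABA-A receptor genes or 18 immediate early genes passed the threshold, in lists so short that the 3.48% of all genes amounts to 1 gene or fewer in each.

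In lists chosen for responses to foreign RNA or stress, 1 of 73 members passed the threshold (1.37%), against 3.48% of all genes. None of 21 interferon response genes (median log2 fold change 0.06), 14 inflammatory mediators (−0.27), 13 genes of the small RNA machinery (0.07) or 10 glucocorticoid response genes (0.00) passed it, and 12 of the 14 inflammatory mediators had negative log2 fold changes. Of 15 chaperones, 14 had negative log2 fold changes and 3 an unadjusted p-value under 0.05. Of these Hspa5, the chaperone of the endoplasmic reticulum, was lower (−0.32 ± 0.12), at 212 to 334 CPM in Control mice and 179 to 232 CPM in Pool 1 mice. Of 14 genes of the extracellular matrix and perineuronal nets, 1 was higher (7.14% of a short list, against 1.48% of all genes). It was Col4a2, a collagen of basement membranes (0.37 ± 0.13). Pool 1 mouse 5, at 77.0 CPM, and mouse 4, at 79.0 CPM, were level with the highest Control mice, and Control mouse 3 was lowest, at 44.7 CPM.

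Single mice carried many of the calls. When each of the 10 mice was left out in turn, 93 of the 374 higher and 122 of the 502 lower genes stayed past the threshold in all 10 fits. A single mouse removed between 24.3% (Pool 1 mouse 3) and 39.8% (Control mouse 2) of the higher genes. Among the lower genes, it removed between 17.7% (Control mouse 4) and 44.4% (Control mouse 1). Genes were gained as well. Without Control mouse 4, 768 genes were lower, of which 413 were among the 502, and without Pool 1 mouse 5, 669 were lower, of which 348 were. By class, 27 of 161 higher and 54 of 242 lower coding genes stayed in all 10 fits, as did 38 of 140 lower processed pseudogenes, 14 of 24 higher structural RNAs and 9 of 15 higher microRNA genes.

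A gene called higher tends to have its highest value in a Pool 1 mouse by construction, so the shares of the 5 are a description. Among the higher genes, Pool 1 mice 1 to 5 were the highest of the 10 mice in 19.5%, 28.3%, 12.8%, 16.6% and 22.7%, beside 11.2%, 9.99%, 6.01%, 5.26% and 15.1% of all genes with a single highest mouse. Among the lower genes with a single lowest mouse, mice 1, 2, 4 and 5 were lowest in 20.8%, 27.7%, 9.54% and 22.3%, beside 10.7%, 10.1%, 4.42% and 17.7% of all such genes, with mouse 3 between mice 4 and 1 in the called genes. Mouse 2 had the largest share of both, and mouse 5 the largest share over all genes. Without Control mouse 1, 105 of the 242 lower coding genes and 74 of the 140 lower processed pseudogenes were lost, beside 44.4% of all lower genes. These classes also make up most of the lower genes, so nothing is read from their share of the losses. The plot of calls with 1 mouse left out gives the counts for each.

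**Figure D5:**
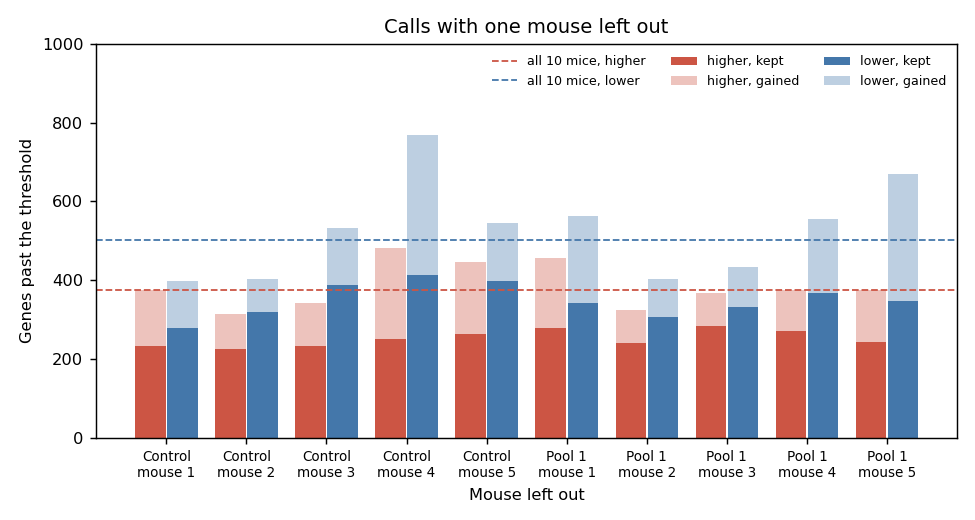
Genes past the threshold (y axis) when each mouse (x axis) is left out, split into genes kept from the fit of all mice (dark) and genes gained (light), with dashed lines at 374 higher and 502 lower genes. The lower genes range from 397 without Control mouse 1 to 768 without Control mouse 4.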

How the data were processed

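RNA from the hippocampus of 20 mice was sequenced as stranded poly(A) libraries with single-end reads of 50 nt. Per the study's methods, the authors aligned reads with STAR to GRCm38, counted them per gene with GENCODE annotation and deposited raw counts of 25190 genes. Whether counting used strand is not given in the sources used here. FastQC 0.11.5 is named in the submitters' processing notes. The members and gene lists were chosen with earlier results of these data known.

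Groups came from the sample labels. All 20 libraries entered 1 fit of 4 groups with TMM scaling and edgeR 4.0.16 (glmQLFit with robust estimation, glmQLFTest) in R 4.3.3, unfiltered, with Benjamini-Hochberg adjustment, and the method was tested on simulated data. Alternatives included DESeq2 1.42.0. CPM uses TMM library sizes, and log2 CPM a prior count of 2. At these depths, 3 counts are 0.119 to 0.146 CPM, counting error only. Exact permutation tests were two-sided. Nothing says that litters or cages differed, so p-values measure the spread between these mice.

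Genes named are, at a mean normalized count of at least 10, the 10 coding genes and the 5 others of smallest p-value in each direction, up to 4 called members of each list, and Syt2, Gfap, Aif1 and Pvalb. Of these, 1 gene is not reported here. Other genes were named after their values were seen. List symbols were matched by name or through GENCODE M21, which has a transcript for 99.8% of the genes. The replicate number shared by groups was tried as a block.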

Additional observations from a re-analysis of the deposited data

Results flagged for a closer look

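In 9 of 218 groups of 5 mice tested (4.13%), 1 mouse lay apart from the other 4 by more than Dixon's 95% critical value of 0.71 for the gap over the range, on log2 values. Chance flags about 1 group in 20. Control mouse 5 was low in Gm5869, at 0.575 CPM against 3.13 to 4.74 CPM in the other Control mice, and in Gm13456, at 5.66 CPM against 20.7 to 27.1 CPM. It was high in Kit, at 92.6 CPM against 56.5 to 64.7 CPM, and in the summed neocortex markers, at 135 CPM against 109 to 116 CPM. Control mouse 4 was low in Sptssa, at 16.9 CPM against 22.6 to 24.2 CPM, and in the summed genes of red blood cells, at 34.8 CPM against 68.4 to 82.7 CPM. Control mouse 3 was low in the summed genes of the extracellular matrix and perineuronal nets, at 1290 CPM against 1510 to 1520 CPM. Pool 1 mouse 5 was low in Bbip1, at 34.1 CPM against 42.5 to 43.7 CPM, and high in the summed genes of leptomeningeal fibroblasts, at 850 CPM against 221 to 263 CPM.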

How the results depend on the processing

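The counts of higher and lower genes stayed within 1.5 times of 374 and 502 with DESeq2 (264 and 400), with DESeq2's size factors, with the 10 libraries of the groups compared (404 and 485), with the 18 libraries left without Vehicle replicate 4 and Pool 2 replicate 1 (373 and 579), with the default estimate of the spread, and with the long-minus-short covariate added after seeing the data (390 and 574). Filters tested fewer genes and gave 155 and 247 at a mean normalized count of at least 10 and 178 and 248 with filterByExpr. Leaving out 1 mouse gave 313 to 481 higher and 397 to 768 lower genes. Genes with an adjusted p-value under 0.05 numbered 0 in the main fit, 7 with DESeq2, 1 with the 10 libraries (Gm5869), and 0 to 1 with 1 mouse out (Eef1a1-ps1 without Control replicate 5).

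With the replicate number as a block, 317 genes were higher, 442 lower and 1, Gm5869, had an adjusted p-value under 0.05. Same-numbered mice did not deviate together, with correlations of −0.30, −0.09, 0.20, 0.04 and −0.24 between Control and Pool 1 for numbers 1 to 5, so they share only a number. Pvalb, not past the threshold, turned to 0.067 with the long-minus-short covariate and to 0.054 without Control replicate 1 (−0.266 to 0.054 with 1 mouse out). The cause of these shifts was not tested. None of the other genes given with a log2 fold change changed direction under any of these alternatives.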

Other observations

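The genes given here were named after their values were seen. Plxna1, a semaphorin receptor, stood at 202 to 220 CPM in Control mice and 240 to 302 CPM in Pool 1 mice without overlap (log2 fold change 0.35 ± 0.13). Vgf, a neuropeptide precursor, had 0.37 ± 0.13 with overlap, since Control mouse 1, at 168 CPM, lay within the Pool 1 range. Kit, a receptor tyrosine kinase, had 0.34 ± 0.12, and Control mouse 5 was level with the highest Pool 1 mice. Hopx, a homeodomain protein of astrocytes and neural stem cells, was lower, at 65.5 to 90.6 CPM in Control mice and 54.0 to 68.2 CPM in Pool 1 mice (−0.38 ± 0.11). In Pool 2 mice, Gm5869 lay between 0.0417 and 0.229 CPM, so of the 20 mice only Control mice 1 to 4 and Vehicle mouse 1 were above 1 CPM.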
